A study of Rattus norvegicus with 12 samples.

Results

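The genes described here encode the machinery of Wnt signalling, and their transcripts were counted in fracture hematomas and femur of the rat. They were chosen by symbol: each gene named Wnt or Fzd (Frizzled) with a number, plus 23 further names for co-receptors, R-spondins and their receptors, secretion factors, transducers and feedback inhibitors. In all, 46 of the 17379 features in the deposited tables matched. They comprise 17 Wnt ligands, 10 Frizzled receptors, 5 co-receptors or other receptors, 5 R-spondins or Lgr receptors, 2 secretion factors, 3 transducers and 4 feedback inhibitors. Wnt2, Wnt3a, Rspo4, Lgr6, Tcf7 and Znrf3 were not analysed here.

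RNA was sequenced from 4 groups of 3 libraries, all from male SAS Fischer rats weighing 200 to 225 g, and the labels name no drug or genetic change. The nonunion group was hematoma from a 5.0 mm femoral defect, the delayed group hematoma from a 1.5 mm defect, and the normal group hematoma from a 0.5 mm defect that heals normally. The preOP group was the healthy piece of femur removed during surgery on the 5.0 mm defects. No label gives the age of the rats or the day of hematoma collection. Nor is it stated that the 3 libraries of a group came from separate animals, so a p-value reflects the spread between these samples alone, which may be technical.

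Wnt proteins are lipid-modified ligands that need the acyltransferase Porcn and the carrier Wls to leave the cell. They bind Frizzled receptors, with Lrp5 or Lrp6 for signalling through β-catenin (Ctnnb1) and the nuclear factor Lef1, or with Ror2 and Ryk for routes that do not need β-catenin. β-catenin signalling drives osteoblast formation in bone, and its targets Axin2, Nkd1 and Rnf43 encode inhibitors of the pathway.

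Totals ran from 16808993 to 24325162 estimated reads per library. Levels are counts per 1000000 reads (CPM) after TMM scaling, on which 3 reads correspond to 0.12 to 0.46 CPM, the limit that a count of 0 allows from counting error alone. Nonunion 2 had 72.17% of its reads on ribosomal RNA genes against at most 1.74% in the other libraries, and it also had the highest summed adipocyte markers (6 of 6 measured), at 11070 CPM. Delayed 2 had the highest summed skeletal muscle markers (7 of 8 measured), at 34850 CPM. The normal libraries also differ from the rest in how their tables were made: 16.82% to 18.1% of their read numbers carry a decimal point, against 100% in the other 9 libraries. The median gap between length and effective length of long transcripts was 157.2 to 191.6 bases in normal and 194.3 to 254.6 bases in the other libraries. The normal group and these differences cannot be told apart in any comparison with normal. The preOP pieces were rich in marrow transcripts, with summed erythroid markers (5 of 6 measured) of 110800 to 188100 CPM. The erythroid sums were 886 to 1441 CPM in nonunion, 2186 to 19490 CPM in delayed and 1809 to 4984 CPM in normal hematomas.

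Of the 46 genes, 35 had reads in all 12 libraries and 38 passed the filter on low counts. The other 8 had too few reads to be tested. Wnt1 (16 reads over all libraries), Wnt3 (13), Wnt6 (55) and Wnt2b (80) encode ligands, Fzd10 (81) a Frizzled receptor and Lgr5 (83) an R-spondin receptor of stem cells. Wnt7a had 2 reads in all. The 13 reads of Wnt8b came from delayed 1, and 53 of the 81 reads of Fzd10 came from delayed 2.

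The first question was how the hematomas of defects that heal poorly differ from the hematoma of the defect that heals normally. In delayed hematomas, Wnt5b, Fzd2, Fzd8 and Nkd2 were lower than in normal hematomas, and no member was higher. In nonunion hematomas, Wnt5b and Fzd2 were lower and no member was higher. Wnt5b encodes a ligand that mostly acts without β-catenin, Fzd2 and Fzd8 encode receptors, and Nkd2 encodes a Dishevelled-binding inhibitor. Genes were called at an edgeR adjusted p below 0.05 over 12474 features, and 36 members were tested. For delayed against normal, 4 of 36 members (11.1%) were called against 7.12% of all features, of which lower calls were 4.44% and higher calls 2.68%. For nonunion against normal, 2 of 36 members (5.56%) were called against 2.37% of all features, 1.48% being lower. The median log2 fold change of the members was -0.55 in delayed against normal, where that of all features was 0.02. In nonunion against normal the medians were -0.53 for the members and -0.03 for all features. In delayed against normal, the libraries did not overlap in 15 of the 36 members, where the share over all features was 36.5%. For nonunion against normal this held in 14 of 36, where the share was 29.6%. Such separation from normal was thus common over all features. Both comparisons use the same 3 normal libraries. In bulk tissue, fewer cells of a type and less RNA per cell cannot be told apart.

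Between nonunion and delayed hematomas, edgeR called 0 members and 0% of all features. DESeq2 called 0 members and 1.19% of all features, and limma-voom 0 members and 0%. At an unadjusted p below 0.05 there were 5 members in edgeR: Wnt4, Wnt5b, Wnt10a, Fzd6 and Lrp5, each with a positive log2 fold change. Their edgeR adjusted p ran from 0.46 to 0.702. The share of all features below that unadjusted p was not computed, so nothing is concluded from this count. In 5 members the libraries of these groups did not overlap, against 8.91% of all features.

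**Figure D1:**
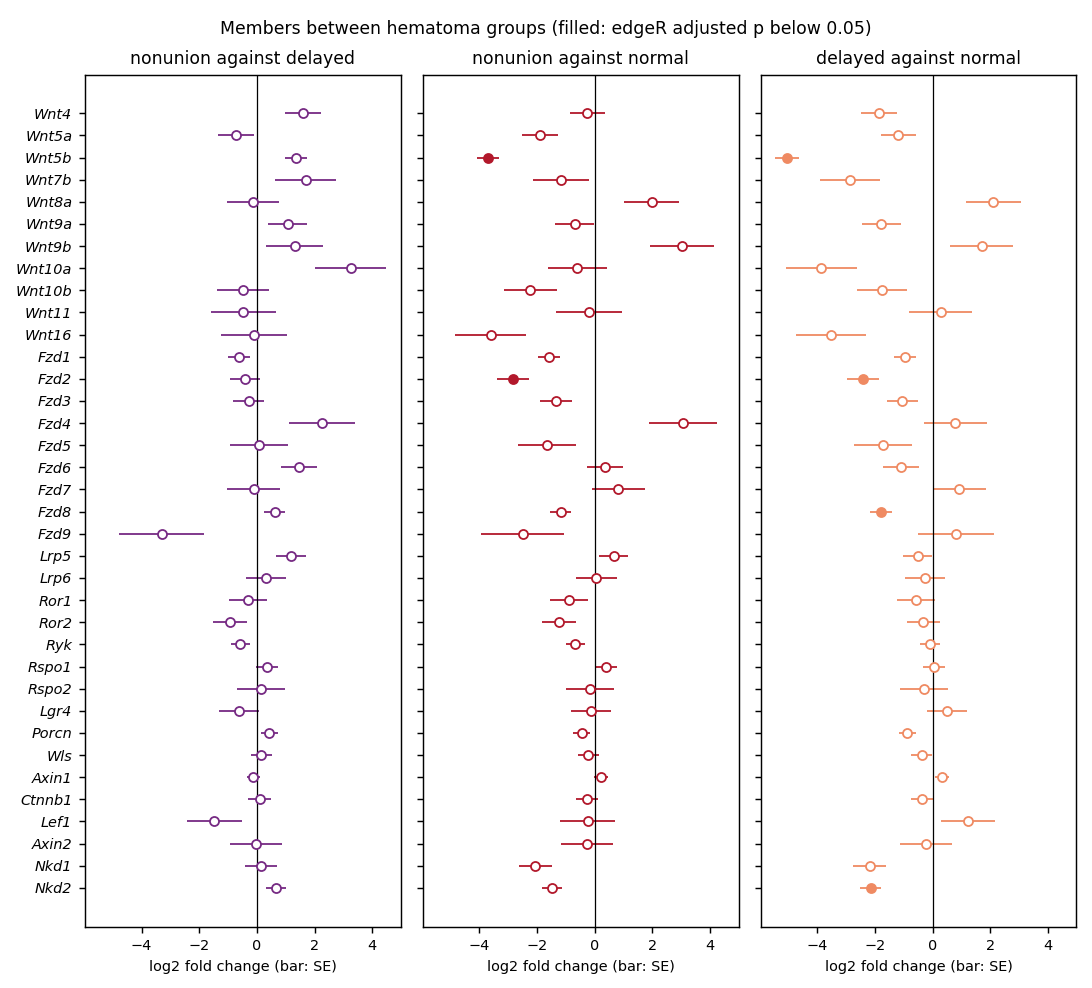
Log2 fold change (x axis, 1 panel per comparison) of the 36 members tested between hematoma groups, with bars for the SE and filled points for an edgeR adjusted p below 0.05. The 4 filled points in delayed against normal and the 2 in nonunion against normal lie left of zero, and the panel for nonunion against delayed has none.

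Among the ligands, Wnt5b separated the 4 groups completely. Its levels were 1.38, 2.00 and 1.45 CPM in nonunion 1, 2 and 3, and 0.461, 0.516 and 0.807 CPM in delayed hematomas. They were 18.7, 23.3 and 17.7 CPM in normal hematomas and 3.36, 4.01 and 4.62 CPM in preOP femur. Normal was therefore highest, then preOP, then nonunion, then delayed, with no library crossing into the neighbouring group. The log2 fold change was -5.05 ± 0.42 (SE) in delayed against normal (edgeR adjusted p = 0.00126) and -3.70 ± 0.39 in nonunion against normal (edgeR adjusted p = 0.00448). These calls held in each of 6 fits that left out 1 library, with adjusted p between 0.00463 and 0.01 for delayed and between 0.0163 and 0.0421 for nonunion. Nonunion exceeded delayed by a log2 fold change of 1.35 ± 0.38, which did not pass (edgeR adjusted p = 0.46). The delayed levels rest on few reads, 12, 10 and 20 per library.

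**Figure D2:**
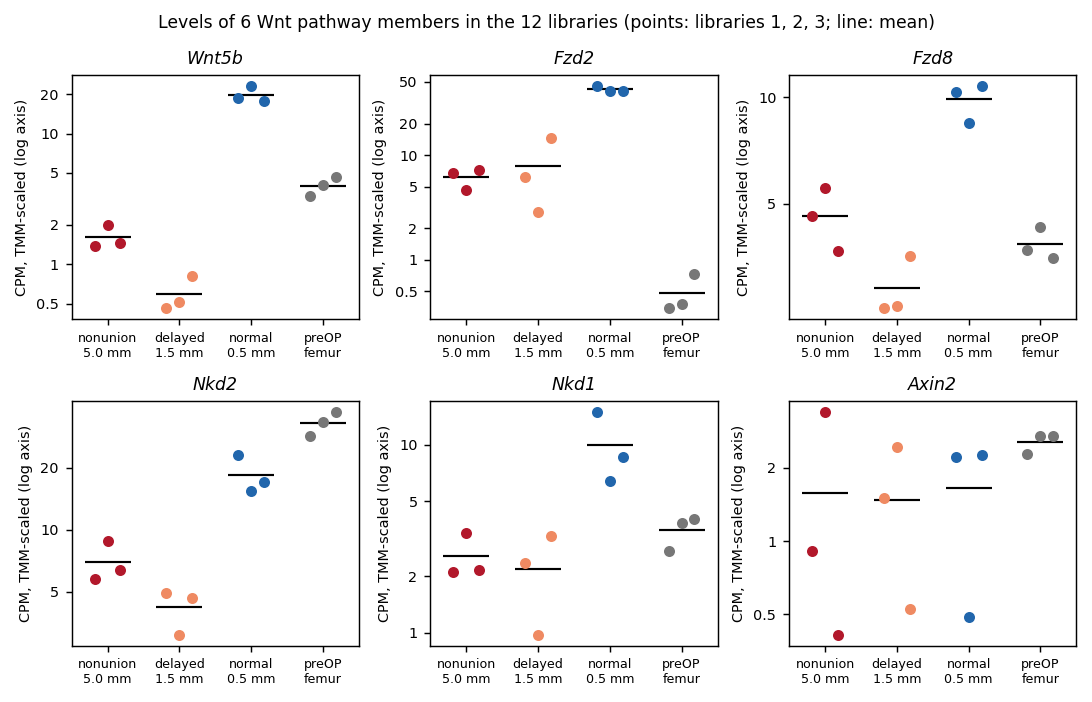
TMM-scaled CPM (log y axis) of Wnt5b, Fzd2, Fzd8, Nkd2, Nkd1 and Axin2 in nonunion, delayed, normal and preOP groups, with a point for each of 3 libraries and a line at the mean. The 3 normal libraries lie above the nonunion and delayed libraries for the first 5 genes, and the groups overlap for Axin2.

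Wnt5a, the closest relative of Wnt5b and a ligand of Ror2, varied more. It stood at 17.9, 22.8 and 10.1 CPM in nonunion, 34.1, 16.3 and 29.2 CPM in delayed, 114, 19.7 and 43.5 CPM in normal and 5.13, 7.88 and 11.2 CPM in preOP libraries. Normal 2 fell inside the range of the nonunion and delayed libraries, while normal 1 was the highest of all. Wnt5a had a log2 fold change of -1.90 ± 0.63 in nonunion against normal (edgeR adjusted p = 0.137) and of -1.18 ± 0.62 in delayed against normal (edgeR adjusted p = 0.26).

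Wnt16, a ligand made by osteoblasts that protects cortical bone in mice, had 2.25, 0 and 1.66 CPM in nonunion and 0.23, 3.71 and 0.524 CPM in delayed hematomas. The levels were 14.3, 8.325 and 25.7 CPM in normal hematomas and 1.97, 2.88 and 7.27 CPM in preOP femur. Each normal library lay above the other 9. The 0 in nonunion 2 allows up to 0.462 CPM. For Wnt16 the log2 fold change was -3.61 ± 1.23 in nonunion against normal (edgeR adjusted p = 0.144) and -3.52 ± 1.22 in delayed against normal (edgeR adjusted p = 0.115), so neither passed. With nonunion 2 and delayed 2 left out, the adjusted p was 0.0408 for nonunion and 0.00639 for delayed.

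Wnt9a, a ligand with a role in joint formation in mice, had 5.26, 1.85 and 8.89 CPM in nonunion, 1.15, 4.95 and 1.53 CPM in delayed, 8.02, 9.55 and 7.80 CPM in normal and 2.02, 2.12 and 3.02 CPM in preOP libraries. The delayed libraries lay below the normal ones, with a log2 fold change of -1.77 ± 0.68 (edgeR adjusted p = 0.147), and with nonunion 2 and delayed 2 left out it was -2.57 (edgeR adjusted p = 0.0107). Wnt8a, which signals through β-catenin in the embryo, ran the other way, with 4.03, 1.23 and 0.91 CPM in nonunion, 3.69, 0.774 and 2.10 CPM in delayed, 0.301, 0.122 and 1.04 CPM in normal and 2.71, 2.36 and 2.77 CPM in preOP libraries. Nonunion 3 and delayed 2 lay below normal 3, and neither difference from normal passed.

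The remaining ligands that could be tested were at low levels. Wnt10b, a ligand that promotes bone formation in mice, averaged 0.772 CPM in nonunion, 0.945 CPM in delayed, 3.18 CPM in normal and 2.58 CPM in preOP libraries. Wnt4 averaged 1.16 CPM in nonunion, 0.379 CPM in delayed, 1.39 CPM in normal and 0.726 CPM in preOP libraries. Wnt10a averaged 0.546 CPM in nonunion, 0.0518 CPM in delayed, 0.892 CPM in normal and 0.171 CPM in preOP libraries. Wnt9b had 0.475, 2.62 and 0.331 CPM in nonunion, 0.653, 0.258 and 0.282 CPM in delayed, 0.201, 0 and 0.135 CPM in normal and 0.493, 0.425 and 0.863 CPM in preOP libraries. Wnt11 had 0.0791, 3.08 and 0.248 CPM in nonunion, 0.576, 2.53 and 1.008 CPM in delayed, 1.40, 0.857 and 0.991 CPM in normal and 0.641, 0.991 and 1.91 CPM in preOP libraries. Nonunion 2 was the highest library for both genes. Without it, Wnt11 was lower in nonunion than in preOP (log2 fold change -2.64, edgeR adjusted p = 0.0357), a difference not called with all libraries. Wnt7b had 14, 0 and 11 reads in nonunion, 5, 0 and 3 in delayed, 26, 7 and 16 in normal and 0, 1 and 0 in preOP libraries.

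Summed per kilobase of effective length, the 17 ligands reached 13.0, 10.7 and 11.5 CPM per kilobase in nonunion, 11.7, 10.3 and 10.8 in delayed, 49.5, 29.5 and 42.0 in normal and 9.18, 11.3 and 15.8 in preOP libraries. The normal libraries stood above the others in this sum, and the other 3 groups overlapped. Wnt5b made up 5.66% to 9.73% of the ligand sum in nonunion, 2.08% to 4.02% in delayed, 19.55% to 40.22% in normal and 15.3% to 19.22% in preOP libraries. Wnt5a, Wnt16 and Wnt5b together formed the larger part of the normal sums, in differing order: Wnt5a led in normal 1, Wnt5b in normal 2 and Wnt16 in normal 3.

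The 10 Frizzled receptors summed to 23.2, 94.4 and 25.8 CPM per kilobase in nonunion, 18.5, 39.9 and 30.6 in delayed, 64.4, 46.8 and 60.7 in normal and 17.98, 16.6 and 19.1 in preOP libraries. Apart from nonunion 2, the normal libraries were highest here as well.

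**Figure D3:**
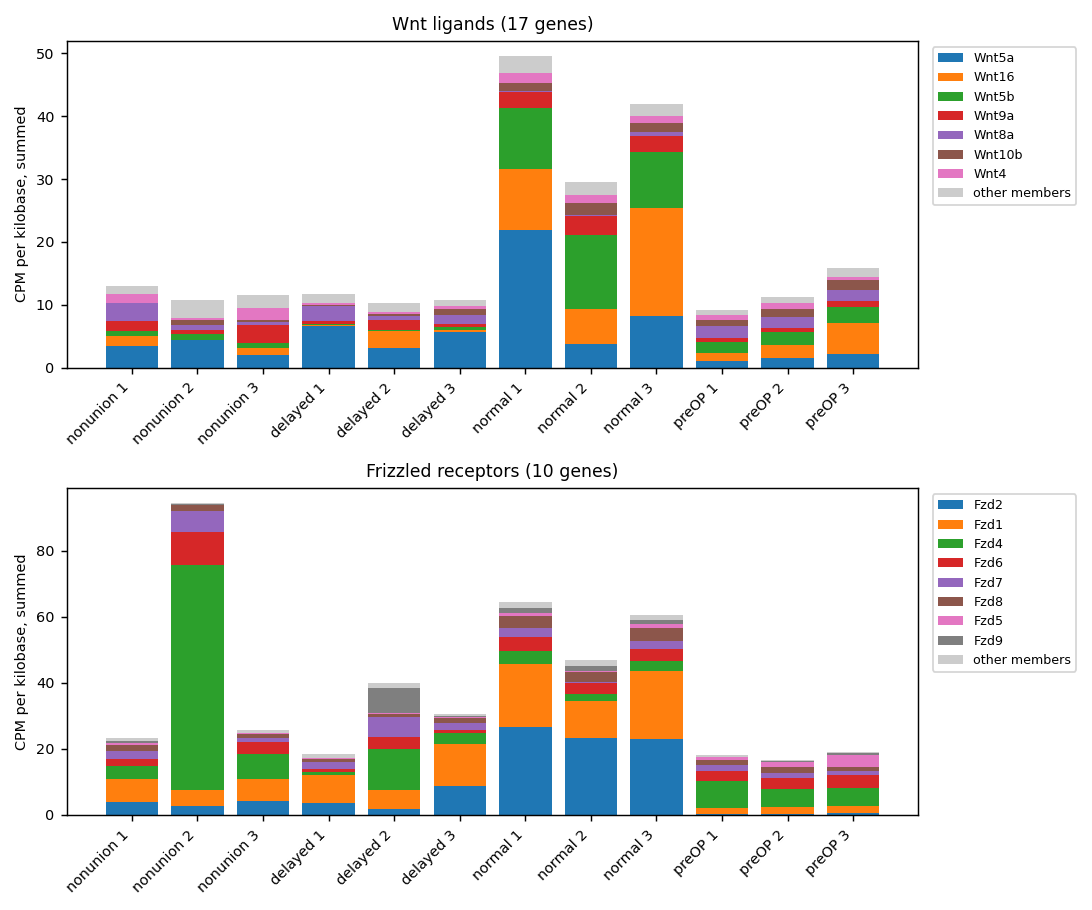
Summed CPM per kilobase of the 17 Wnt ligands (upper panel) and 10 Frizzled receptors (lower panel) in each library, stacked by gene. The ligand sums of the normal libraries lie between 29.5 and 49.5, above the other 9 libraries, and Fzd4 fills most of the Frizzled sum of 94.4 in nonunion 2.

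Of the Frizzled receptors, Fzd2 had the clearest pattern. It stood at 6.68, 4.62 and 7.28 CPM in nonunion, 6.14, 2.84 and 14.7 CPM in delayed, 46.0, 40.8 and 40.6 CPM in normal and 0.345, 0.378 and 0.74 CPM in preOP libraries. All hematoma libraries lay above preOP, and the normal libraries lay above the other hematomas, whose ranges overlapped. The log2 fold change was -2.83 ± 0.56 in nonunion against normal (edgeR adjusted p = 0.039) and -2.42 ± 0.55 in delayed against normal (edgeR adjusted p = 0.0359). The nonunion call was lost whichever library was left out (adjusted p 0.0932 to 0.125). The delayed call was lost without normal 1, normal 2, normal 3 or delayed 1 (adjusted p 0.0812 to 0.11) and when only the nonunion libraries were dropped from the fit (adjusted p = 0.0639).

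Fzd8 had 4.63, 5.55 and 3.68 CPM in nonunion, 2.53, 2.58 and 3.55 CPM in delayed, 10.3, 8.45 and 10.8 CPM in normal and 3.70, 4.29 and 3.51 CPM in preOP libraries. The normal libraries lay above all others. Fzd8 had a log2 fold change of -1.17 ± 0.36 in nonunion against normal (edgeR adjusted p = 0.116) and -1.79 ± 0.37 in delayed against normal (edgeR adjusted p = 0.0264). Leaving out any 1 of the 6 libraries ended the delayed call (adjusted p 0.05005 to 0.0996).

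Fzd1 ranked next to Fzd2 in level per kilobase among the Frizzled receptors of normal hematomas. It stood at 28.6, 20.2 and 27.2 CPM in nonunion, 35.3, 24.8 and 52.7 CPM in delayed, 80.3, 48.0 and 87.1 CPM in normal and 7.94, 9.34 and 8.75 CPM in preOP libraries. Nonunion lay below normal without overlap, with a log2 fold change of -1.58 ± 0.38 that did not pass (edgeR adjusted p = 0.0616). Delayed 3 lay above normal 2, and delayed against normal was -0.95 ± 0.37 (edgeR adjusted p = 0.15). Fzd3, known for planar polarity and axon guidance, had 2.41, 0.617 and 2.11 CPM in nonunion, 2.92, 1.50 and 1.82 CPM in delayed, 4.36, 4.29 and 4.19 CPM in normal and 0.839, 0.566 and 0.555 CPM in preOP libraries. The normal libraries were highest for Fzd3 too, and neither difference from normal passed.

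Fzd4, a receptor that endothelial cells use, showed how far a single library can stand apart. It had 26.5, 454.9 and 50.1 CPM in nonunion, 5.84, 81.4 and 20.3 CPM in delayed, 24.7, 14.3 and 20.7 CPM in normal and 53.2, 35.3 and 37.5 CPM in preOP libraries. In nonunion 2, Fzd4 made up 72.42% of the Frizzled sum, and this library also had the highest summed endothelial markers (6 of 6 measured), 1250 CPM against 80.7 to 640 CPM in the others. The part of those cells in the Fzd4 level was not tested. The log2 fold change of 3.05 ± 1.17 in nonunion against normal did not pass (edgeR adjusted p = 0.184). DESeq2 did call it (log2 fold change 3.18, DESeq2 adjusted p = 0.027), the only member higher than in normal under that tool. Fzd6 had 8.50, 39.2 and 14.7 CPM in nonunion, 3.72, 13.8 and 4.52 CPM in delayed, 17.9, 13.1 and 14.7 CPM in normal and 12.1, 12.9 and 15.5 CPM in preOP libraries. Nonunion 2 and delayed 2 were the highest of their groups. Without these 2 libraries, Fzd6 was called lower in delayed than in normal (-1.81, edgeR adjusted p = 0.0217) and than in preOP (-1.49, edgeR adjusted p = 0.00451).

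Fzd9, which supports osteoblast function in mice, had 0.831, 0.308 and 0.414 CPM in nonunion, 0.115, 15.8 and 0.363 CPM in delayed, 2.71, 3.31 and 2.84 CPM in normal and 0.345, 0.897 and 1.29 CPM in preOP libraries. Its direction in delayed against normal rests on delayed 2: the log2 fold change was 0.81 ± 1.33 with all libraries (edgeR adjusted p = 0.734) and -3.58 without delayed 2 (edgeR adjusted p = 0.0358). Fzd5 had 1.03, 0 and 0.248 CPM in nonunion, 0.576, 0.103 and 0.605 CPM in delayed, 1.70, 0.612 and 1.94 CPM in normal and 1.48, 2.45 and 5.67 CPM in preOP libraries. Its normal libraries lay above the delayed ones. Fzd7 averaged 8.70 CPM in nonunion, 9.02 CPM in delayed, 4.50 CPM in normal and 4.29 CPM in preOP libraries, with 16.8 CPM in nonunion 2, 16.2 CPM in delayed 2 and 0.551 CPM in normal 2.

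None of the 5 co-receptors and other receptors was called between hematomas. Lrp5, whose loss lowers bone mass in humans and mice, had 24.9, 76.6 and 23.9 CPM in nonunion, 10.4, 23.0 and 19.6 CPM in delayed, 30.8, 17.5 and 25.96 CPM in normal and 22.5, 24.4 and 27.1 CPM in preOP libraries. Nonunion lay above delayed in each library, with a log2 fold change of 1.18 ± 0.51 that did not pass (edgeR adjusted p = 0.692). Its paralog Lrp6 averaged 24.8 CPM in nonunion, 19.2 CPM in delayed, 22.0 CPM in normal and 20.9 CPM in preOP libraries, with normal 2 at 6.43 CPM. Ror2, a receptor for Wnt5a, had 8.98, 5.24 and 8.98 CPM in nonunion, 9.52, 5.52 and 27.1 CPM in delayed, 20.7, 11.5 and 19.9 CPM in normal and 2.81, 5.05 and 6.04 CPM in preOP libraries. Nonunion lay below normal for Ror2, whereas delayed 3 was the highest library. Ryk, a kinase-like Wnt receptor, had 58.3, 45.9 and 47.4 CPM in nonunion, 44.6, 91.9 and 82.8 CPM in delayed, 86.3, 53.1 and 88.8 CPM in normal and 34.8, 34.5 and 31.1 CPM in preOP libraries. Ror1 averaged 1.83 CPM in nonunion, 2.23 CPM in delayed, 3.23 CPM in normal and 1.06 CPM in preOP libraries.

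The R-spondins, secreted amplifiers of Wnt signalling, and their receptor Lgr4 gave no call. Lgr4 had 11.2, 27.9 and 12.6 CPM in nonunion, 9.98, 49.7 and 18.03 CPM in delayed, 16.6, 6.80 and 28.8 CPM in normal and 15.6, 12.5 and 8.14 CPM in preOP libraries. The 4 groups overlapped, and delayed 2 was highest. Rspo1 averaged 8.33 ± 1.13 CPM in nonunion, 6.28 ± 1.84 CPM in delayed, 6.06 ± 1.37 CPM in normal and 10.6 ± 1.79 CPM in preOP libraries (SD, n = 3 each). Rspo2 averaged between 1.87 and 2.65 CPM in the 4 groups. Rspo3 had 0.0396, 1.08 and 0.166 CPM in nonunion, 0.115, 5.52 and 0.0403 CPM in delayed, 0.301, 0.184 and 0.135 CPM in normal and 1.97, 1.60 and 1.48 CPM in preOP libraries. Its direction in delayed against preOP also rests on delayed 2: the log2 fold change was 0.15 ± 1.32 with all libraries (edgeR adjusted p = 0.946) and -4.10 without delayed 2. Apart from delayed 2, Rspo3 had 1 to 7 reads per hematoma library against 40, 34 and 24 in preOP, the group through which it passed the filter.

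The 2 secretion factors and 3 transducers gave no call between hematomas. Porcn had 9.53, 14.5 and 10.6 CPM in nonunion, 8.18, 7.74 and 8.75 CPM in delayed, 12.1, 18.9 and 14.3 CPM in normal and 3.16, 1.79 and 3.58 CPM in preOP libraries. Delayed lay below both other hematoma groups, with a log2 fold change of -0.88 ± 0.30 against normal (edgeR adjusted p = 0.108). Wls, summed over 2 transcripts, had 56.8, 126 and 98.7 CPM in nonunion, 54.1, 101 and 91.2 CPM in delayed, 102.5, 82.1 and 128 CPM in normal and 52.3, 46.2 and 40.0 CPM in preOP libraries. The hematoma groups overlapped throughout for Wls.

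Ctnnb1 was the most abundant member per kilobase in each of the 12 libraries. It had 284, 193 and 211 CPM in nonunion, 217, 186 and 219 CPM in delayed, 294, 132 and 356 CPM in normal and 133, 140.0 and 122 CPM in preOP libraries. Normal 2 lay below all other hematomas, and the log2 fold change was -0.27 ± 0.39 in nonunion and -0.37 ± 0.39 in delayed against normal (edgeR adjusted p = 0.741 and 0.584). Axin1, a scaffold of the complex that degrades β-catenin, had 56.4, 43.0 and 48.8 CPM in nonunion, 61.3, 41.5 and 52.6 CPM in delayed, 40.5, 39.6 and 42.5 CPM in normal and 54.8, 58.3 and 53.1 CPM in preOP libraries. Axin1 had the smallest SE of the transducers, with log2 fold changes of 0.21 ± 0.24 in nonunion and 0.33 ± 0.24 in delayed against normal (edgeR adjusted p = 0.674 and 0.416). Lef1 averaged 0.619 CPM in nonunion, 1.66 CPM in delayed, 0.687 CPM in normal and 2.28 CPM in preOP libraries.

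Of the 3 feedback inhibitors tested between hematomas, Nkd2 was called. Nkd2, which binds Dishevelled, had 5.73, 8.79 and 6.37 CPM in nonunion, 4.91, 3.09 and 4.64 CPM in delayed, 22.9, 15.4 and 16.99 CPM in normal and 28.4, 33.2 and 37.2 CPM in preOP libraries. As for Wnt5b, the 4 groups did not overlap, but preOP rather than normal was highest. The log2 fold change was -1.49 ± 0.36 in nonunion against normal (edgeR adjusted p = 0.0626) and -2.14 ± 0.36 in delayed against normal (edgeR adjusted p = 0.0148). The delayed call was lost without normal 1, normal 3, delayed 1 or delayed 3 (adjusted p 0.0509 to 0.0596).

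Its relative Nkd1 had 2.10, 3.39 and 2.15 CPM in nonunion, 2.34, 0.98 and 3.27 CPM in delayed, 14.9, 6.37 and 8.56 CPM in normal and 2.71, 3.82 and 4.01 CPM in preOP libraries. Normal lay above the other 3 groups, which overlapped. For Nkd1 the log2 fold change was -2.06 ± 0.57 in nonunion against normal (edgeR adjusted p = 0.092) and -2.19 ± 0.57 in delayed against normal (edgeR adjusted p = 0.0515), both short of the threshold. With nonunion 2 and delayed 2 left out, the delayed difference was called (log2 fold change -1.74, edgeR adjusted p = 0.0418).

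Axin2, the most widely used reporter of β-catenin signalling, showed no such order. It had 0.91, 3.39 and 0.414 CPM in nonunion, 1.50, 2.42 and 0.524 CPM in delayed, 2.21, 0.49 and 2.25 CPM in normal and 2.27, 2.69 and 2.71 CPM in preOP libraries. Each hematoma group spanned high and low libraries, and the log2 fold change was -0.26 ± 0.91 in nonunion and -0.22 ± 0.89 in delayed against normal (edgeR adjusted p = 0.905 and 0.899). Rnf43, a ligase that removes Frizzled receptors, had 0.0396, 0.925 and 0.0414 CPM in nonunion, 0.115, 0.103 and 0.0403 CPM in delayed, 0.15, 0.122 and 0.586 CPM in normal and 2.27, 2.55 and 1.85 CPM in preOP libraries. It was near the level of 3 reads in most hematomas and was tested against preOP only.

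The promoters of 4 genes are shown. Nkd1 and Axin2, known targets of β-catenin with TCF/LEF factors, were chosen as the members whose upstream sequence held the motif searched for. Fzd8 and Nkd2 were chosen because they were called between hematomas. That Nkd1 and Axin2 hold the motif therefore follows from the choice. Each sequence is the 250 bases upstream of the RefSeq start in GRCr8, written 5′ to 3′ on the gene's strand, with matches to CTTTGAT, or ATCAAAG on the other strand, in capitals. Nkd1 lies at chr19:34722847-34723096 (minus strand), Axin2 at chr10:94398535-94398784 (plus strand), Nkd2 at chr1:31272282-31272531 (plus strand) and Fzd8 at chr17:62009744-62009993 (plus strand).
Nkd1: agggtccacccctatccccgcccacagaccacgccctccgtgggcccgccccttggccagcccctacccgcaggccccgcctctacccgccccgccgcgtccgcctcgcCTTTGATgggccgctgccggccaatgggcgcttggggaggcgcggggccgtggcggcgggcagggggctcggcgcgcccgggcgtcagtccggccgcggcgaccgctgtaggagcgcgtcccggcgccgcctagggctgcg
Axin2: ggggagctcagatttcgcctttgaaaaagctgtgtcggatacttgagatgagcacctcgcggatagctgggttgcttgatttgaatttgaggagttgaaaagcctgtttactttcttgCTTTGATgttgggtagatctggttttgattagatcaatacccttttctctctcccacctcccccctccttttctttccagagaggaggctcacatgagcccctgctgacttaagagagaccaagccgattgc
Nkd2: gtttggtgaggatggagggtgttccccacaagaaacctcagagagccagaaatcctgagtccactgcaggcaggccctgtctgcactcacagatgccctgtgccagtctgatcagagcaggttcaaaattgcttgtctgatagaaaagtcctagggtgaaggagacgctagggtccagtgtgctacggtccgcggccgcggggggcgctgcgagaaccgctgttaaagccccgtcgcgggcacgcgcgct
Fzd8: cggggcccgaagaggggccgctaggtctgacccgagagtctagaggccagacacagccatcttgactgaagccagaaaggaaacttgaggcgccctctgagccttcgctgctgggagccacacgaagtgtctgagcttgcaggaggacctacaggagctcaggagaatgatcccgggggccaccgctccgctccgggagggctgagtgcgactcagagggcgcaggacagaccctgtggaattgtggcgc
The motif occurred once in Nkd1 and once in Axin2, and these letters were not in the windows of Nkd2 and Fzd8. Of the 35 members matched in the promoter table, these 2 held it, against 874 of all 27457 promoters (3.18%). Nkd1 and Axin2 thus share the match but not the pattern of levels given above. The 4 windows also differ in base composition, with 80.0% G and C in Nkd1, 47.6% in Axin2, 59.6% in Nkd2 and 63.6% in Fzd8, where the median was 63.6% over the member promoters and 52.0% over all. The promoters of Wnt5b and Fzd2 are named only.

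Marker lists of several cell types differed between hematomas alongside these genes. Summed osteoblast markers (8 of 8 measured) were 4281 to 5265 CPM in nonunion, 4195 to 15540 CPM in delayed, 18240 to 27400 CPM in normal and 2252 to 2511 CPM in preOP libraries. Most of that sum is the collagen gene Col1a1, which had 1724 to 2097 CPM in preOP, fewer than in each hematoma. Bglap, which encodes osteocalcin, ran otherwise, at 0.579 to 1.23 CPM in nonunion, 0.887 to 1.75 CPM in delayed, 68.8 to 84.7 CPM in normal and 190.0 to 259 CPM in preOP libraries. Alpl, Ibsp and Dlx5 were highest in normal and higher in preOP than in nonunion and delayed, which for these 3 genes is the order of normal, preOP and the other hematomas seen for Wnt5b. Runx2, Phex and Sp7 did not show this order. Runx2 overlapped between normal (37.8 to 76.3 CPM), delayed (20.3 to 49.4 CPM) and preOP (41.8 to 50.2 CPM). Phex was higher in nonunion 2 (1.85 CPM) than in normal 2 (1.41 CPM) and in preOP (0.616 to 1.09 CPM). Sp7 was highest in normal, but nonunion 1 (1.46 CPM) lay inside the preOP range (0.888 to 2.28 CPM). Sp7 was at 0 in nonunion 2. Summed chondrocyte markers (8 of 8 measured) were 7.71 to 55.3 CPM in nonunion, 31.6 to 35.4 CPM in delayed, 312 to 619 CPM in normal and 92.7 to 119 CPM in preOP libraries. Col11a2 made up 59.3 to 100.5 CPM of the preOP sums. Col2a1 was at 0 in nonunion 2, Matn1 at 0 in the 3 nonunion, the 3 normal and 1 of the preOP libraries, and Col9a1 and Hapln1 at 0 in some nonunion and delayed libraries. Osteocyte markers (6 of 6 measured) summed to 78.2 to 227 CPM in nonunion, 177 to 393 CPM in delayed, 461 to 573 CPM in normal and 43.1 to 48.0 CPM in preOP libraries. Pdpn made up most of the nonunion and delayed sums, at 70.3 to 225 and 173.5 to 392 CPM, against 4.44 to 5.36 CPM in preOP. Dmp1 had 1.11 to 5.86 CPM in nonunion, 0.161 to 2.58 in delayed, 117 to 227 in normal and 26.45 to 30.2 in preOP. Mepe was also lower in nonunion and delayed (at most 0.464 CPM) than in preOP (7.52 to 16.1 CPM).

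Some lists of cells outside the skeleton also separated delayed from normal hematomas. Neutrophil markers (5 of 6 measured) summed to 55.5 to 630 CPM in nonunion, 72.7 to 943 CPM in delayed and 1378 to 8685 CPM in normal. The preOP sums were 7281 to 9369 CPM. S100a8 and S100a9 made up most of the normal sums, and Csf3r and Cxcr2 overlapped between delayed and normal. The fibroblast, macrophage, adipocyte, skeletal muscle, erythroid and B cell sums overlapped between delayed and normal. Endothelial markers summed to 333 to 1250 CPM in nonunion, 80.7 to 279.9 CPM in delayed, 380.5 to 427 CPM in normal and 245 to 315 CPM in preOP libraries. Pecam1, Plvap and Esam were lower in each delayed library than in normal, whereas Cdh5, Kdr and Tek overlapped between these groups. Tek was higher in delayed 2 (45.9 CPM) than in normal (23.1 to 30.5 CPM). Pericyte and smooth muscle markers (6 of 6 measured) summed to 321 to 1162 CPM in nonunion, 169.9 to 387 CPM in delayed, 451 to 681 CPM in normal and 179 to 206 CPM in preOP libraries. Of these, Acta2 and Cspg4 were lower in each delayed library than in normal. Rgs5, Pdgfrb, Myh11 and Cnn1 overlapped, and Pdgfrb was higher in delayed 3 (191.7 CPM) than in normal (89.3 to 109.6 CPM). Summed T and NK cell markers (6 of 6 measured) were higher in delayed than in normal hematomas. The sums were 46.2 to 222 CPM in nonunion, 109 to 201 in delayed, 49.1 to 92.9 in normal and 114 to 152 in preOP. Most of the delayed sum was Cd8a, at 104 to 152 CPM. Nkg7 ran the other way, at 0.766 to 4.11 CPM in delayed and 10.8 to 50.3 CPM in normal. Cd3e, Cd3d, Lck and Il2rb overlapped between delayed and normal. The part of any of these cells in the differences was not tested.

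The second question was how each hematoma differs from healthy femur. Against preOP femur, Fzd1, Fzd2 and Porcn were higher in all 3 hematoma groups, and Nkd2 was lower in all 3. Wnt5b was lower in nonunion and delayed hematomas and higher in normal hematomas. These 3 comparisons use the same 3 preOP libraries. Of the 38 members, Rspo3 and Rnf43 passed the filter only through preOP, the group where they are high, so lower values in the hematomas follow from the filter. Wnt7b passed it only through normal and nonunion, the groups where it is high, so higher values there follow from the filter too. The counts that follow include these genes. The calls were 8 of 38 members (21.1%) in nonunion, 10 of 38 (26.3%) in delayed and 17 of 38 (44.7%) in normal. Over all 12846 features edgeR called 28.4%, 28.2% and 42.6% in the same order, so the members' shares were near or below the background. Higher members numbered 5 in nonunion, 6 in delayed and 14 in normal, where 13.5%, 12.6% and 20.5% of all features were higher. Lower members numbered 3, 4 and 3, where 14.9%, 15.6% and 22.1% of all features were lower. The median log2 fold change of the members was 0.55 in nonunion, -0.17 in delayed and 0.73 in normal, against 0.00, -0.03 and -0.09 over all features. Libraries did not overlap with preOP in 13 of 38 members in nonunion, 16 in delayed and 26 in normal. Over all features the shares were 49.1%, 52% and 66.9%.

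Of 9 Frizzled receptors tested, 2 were higher in nonunion, 3 in delayed and 4 in normal hematomas, and 1 was lower in delayed. Fzd2 had log2 fold changes of 3.68 ± 0.58 in nonunion, 4.02 ± 0.58 in delayed and 6.45 ± 0.64 in normal against preOP (edgeR adjusted p = 0.00125, 0.000783 and 0.000101). Fzd1 had log2 fold changes of 1.55 ± 0.32 in nonunion, 2.11 ± 0.32 in delayed and 3.05 ± 0.33 in normal (edgeR adjusted p = 0.00491, 0.00101 and 0.000142). These 6 calls held whichever library was left out. Fzd3 rose by 1.66 ± 0.51 in delayed and 2.70 ± 0.52 in normal on the log2 scale (edgeR adjusted p = 0.0307 and 0.00226). Ryk rose by 1.13 ± 0.29 in delayed and 1.18 ± 0.29 in normal (edgeR adjusted p = 0.0148 and 0.00788). Fzd8 rose by 1.36 ± 0.31 and Ror2 by 1.91 ± 0.56 in normal (edgeR adjusted p = 0.00546 and 0.0186), whereas Fzd5 was lower in delayed, at -2.86 ± 0.95 (edgeR adjusted p = 0.0444). That call was lost with DESeq2 size factors (adjusted p = 0.0539) or no filter (adjusted p = 0.0503).

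Among the ligands, the log2 fold change of Wnt5b against preOP was -1.33 ± 0.33 in nonunion, -2.73 ± 0.35 in delayed and 2.31 ± 0.33 in normal (edgeR adjusted p = 0.0126, 0.00041 and 0.000474). Wnt5a rose by 1.72 ± 0.59 in delayed and 2.88 ± 0.61 in normal (edgeR adjusted p = 0.0493 and 0.00386). The delayed call of Wnt5a was lost with no filter, limma-voom or effective lengths as offsets (adjusted p 0.0502 to 0.0765). Wnt7b, a ligand that promotes osteoblast formation in mice, was called in nonunion and normal (edgeR adjusted p = 0.0375 and 0.00773), where 25 and 49 reads compare with 1 read in all of preOP. Its ratio to preOP was 25.8-fold (95% counting interval 4.22 to 1058) in nonunion and 48.3-fold (8.28 to 1948) in normal. Wnt7b passed the filter only through these hematoma groups, so its values describe the gene and support nothing further. In normal hematomas Wnt9a was higher by 1.82 ± 0.63 and Wnt8a was at -2.38 ± 0.84 (edgeR adjusted p = 0.0371 and 0.0392).

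The secretion factor Porcn rose by 2.01 ± 0.34 in nonunion, 1.53 ± 0.33 in delayed and 2.41 ± 0.34 in normal on the log2 scale (edgeR adjusted p = 0.00171, 0.00626 and 0.000441). Wls rose by 1.02 ± 0.33 in nonunion and 1.18 ± 0.33 in normal (edgeR adjusted p = 0.0378 and 0.0147), the nonunion call being lost with limma-voom (adjusted p = 0.0551). Ctnnb1 was called in normal hematomas at 0.99 ± 0.33 (edgeR adjusted p = 0.0309), although normal 2 lay inside the preOP range.

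Of 4 feedback inhibitors tested, 2 were lower in nonunion and in delayed, and 2 were lower and 1 higher in normal. Nkd2 was lower in each hematoma group, with log2 fold changes of -2.25 ± 0.29 in nonunion, -2.96 ± 0.30 in delayed and -0.84 ± 0.28 in normal (edgeR adjusted p = 0.000493, 0.000133 and 0.0318). The normal call of Nkd2 was lost with DESeq2 size factors (edgeR adjusted p = 0.0534). Rnf43 was at -3.25 ± 1.06 in nonunion, -4.60 ± 1.08 in delayed and -2.90 ± 0.97 in normal (edgeR adjusted p = 0.0408, 0.00955 and 0.0321), with 1 to 13 reads per hematoma library against 46, 54 and 30 in preOP. It passed the filter on low counts only through preOP, so these values describe the gene and support nothing further. Nkd1 was higher in normal, at 1.50 ± 0.49 (edgeR adjusted p = 0.0293).

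**Figure D4:**
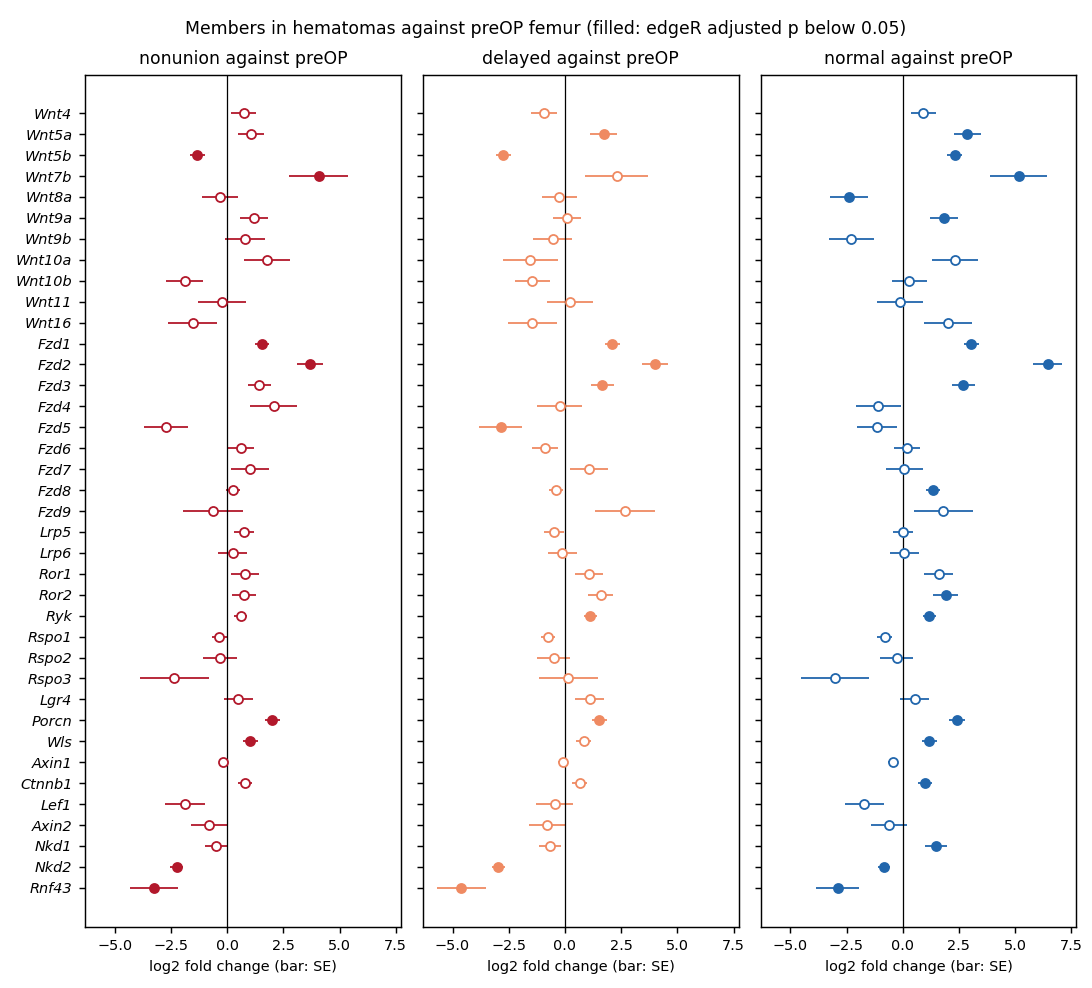
Log2 fold change (x axis, 1 panel per hematoma group) of the 38 members tested against preOP femur, with bars for the SE and filled points for an edgeR adjusted p below 0.05. Fzd1, Fzd2 and Porcn are filled and right of zero in all 3 panels, and Wnt5b is left of zero in nonunion and delayed and right of it in normal.

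Leaving out 1 library at a time, 4 of 8 nonunion, 6 of 10 delayed and 9 of 17 normal calls against preOP held in each of 6 fits. For nonunion, the call of Wnt5b was lost without nonunion 1, nonunion 3 or preOP 2 (adjusted p up to 0.0671), those of Wnt7b and Rnf43 without nonunion 1, nonunion 3 or any 1 preOP library (up to 0.122 and 0.139), and that of Wls without nonunion 2, nonunion 3 or any 1 preOP library (up to 0.126). For delayed, the call of Fzd5 was lost without any 1 library (up to 0.171), that of Wnt5a without delayed 1, delayed 3 or any 1 preOP library (up to 0.122), that of Fzd3 without delayed 1 or any 1 preOP library (up to 0.11) and that of Ryk without preOP 3 (0.0598). For normal, the call of Wnt9a was lost without any 1 library (up to 0.0873), and those of Wnt8a, Ctnnb1, Nkd1, Nkd2 and Rnf43 without any 1 preOP library (up to 0.141). They were also lost without normal 1 or 2 for Wnt8a and Rnf43, without normal 1 or 3 for Ctnnb1 and Nkd1, and without normal 2 or 3 for Nkd2. The call of Ror2 was lost without normal 3, preOP 1 or preOP 2 (up to 0.0729) and that of Wls without normal 3 or preOP 3 (up to 0.0566).

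Other genes of the pathway were counted by list. Over all features, edgeR called 1.48% lower in nonunion and 4.44% lower in delayed against normal, and 0% in nonunion against delayed. Of 13 secreted antagonists tested, 2 were lower in nonunion and 3 in delayed than in normal, with none higher. Dkk1, which blocks Lrp5 and Lrp6, was at a log2 fold change of -3.62 ± 0.60 in nonunion and -4.15 ± 0.61 in delayed against normal (edgeR adjusted p = 0.024 and 0.00948). Sost, the osteocyte antagonist, was called in both but had at most 0.119 CPM in the nonunion and delayed libraries, against 1.60, 0.918 and 1.58 CPM in normal. It passed the filter only through normal, the group where it is high. Its lower calls, included in these counts, therefore follow from the filter and support nothing further. Frzb, a decoy receptor, was lower in delayed, at -4.60 ± 1.05 (edgeR adjusted p = 0.036). Of 9 common targets tested, 1 was lower in nonunion and 2 in delayed: Twist1, a mesenchymal factor, was at -2.28 ± 0.39 in nonunion and -2.17 ± 0.39 in delayed (edgeR adjusted p = 0.0265 and 0.0185), and Tnfrsf19 at -4.77 ± 0.96 in delayed (edgeR adjusted p = 0.0255). Among 10 nuclear cofactors tested, Ctnnbip1, an inhibitor of β-catenin, was lower in delayed, at -1.57 ± 0.37 (edgeR adjusted p = 0.0384), and none was called in nonunion. The 13 genes of the destruction complex and Dishevelled and the 8 of planar polarity gave 0 calls in either comparison, and the 5 lists gave 0 calls in nonunion against delayed.

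Against preOP, edgeR called 13.5% of all features higher in nonunion, 12.6% in delayed and 20.5% in normal. The shares called lower were 14.9%, 15.6% and 22.1% in the same order. Beside these shares, the antagonists had 2 higher of 13 in nonunion, 1 in delayed and 5 in normal, and none lower. Sfrp2, a secreted decoy for Wnt, was among them in all 3, with log2 fold changes of 5.05 ± 0.60 in nonunion, 4.63 ± 0.59 in delayed and 4.40 ± 0.58 in normal (edgeR adjusted p = 0.000315, 0.000411 and 0.000323). Sost was among the 5 higher in normal, and it passed the filter only through normal, the group where it is high. The destruction complex and Dishevelled list had 1 higher and 1 lower in nonunion, 1 lower in delayed, and 1 higher and 2 lower in normal. Btrc, a ligase that targets β-catenin, was lower in all 3, at -2.24 ± 0.29 in nonunion, -2.08 ± 0.29 in delayed and -2.03 ± 0.29 in normal (edgeR adjusted p = 0.000492, 0.000624 and 0.000444). Planar polarity genes moved both ways, with 2 higher and 2 lower of 8 in nonunion and in delayed, and 2 higher and 3 lower in normal. Vangl1 was higher by 2.53 ± 0.29 in nonunion, 2.24 ± 0.29 in delayed and 3.02 ± 0.30 in normal (edgeR adjusted p = 0.000273, 0.000433 and 9.56e-05). Nuclear cofactors had 2 higher and 1 lower of 10 in nonunion, 1 higher and 2 lower in delayed, and 3 higher and 1 lower in normal. Common targets had 3 higher and 1 lower of 9 in nonunion, 3 higher and 2 lower in delayed, and 4 higher in normal. Ccnd1, which encodes cyclin D1, was higher by 2.42 ± 0.32 in nonunion, 1.67 ± 0.31 in delayed and 2.29 ± 0.32 in normal (edgeR adjusted p = 0.000513, 0.00279 and 0.000393).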

How the data were processed

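Illumina TruSeq libraries were made from 1 ug of Trizol-extracted RNA per the labels' protocols. Per the submitters' processing notes, bcl2fastq 1.8.4, FastQC, Trimmomatic and Salmon were used, with genome build rn6. The deposited tables give, per the file headers, estimated counts and TPM for 18321 RefSeq transcripts with their lengths and effective lengths. No test used the deposited TPM. Estimated counts were rounded and summed by symbol, with 17367 transcripts matched and 954 kept as single features. Salmon divides reads between similar transcripts, so such genes share some uncertainty.

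edgeR 4.0.16 (R 4.3.3) was run with TMM scaling, filterByExpr by group, two-sided quasi-likelihood F-tests and Benjamini-Hochberg adjustment over all tested features, on 9 libraries between hematomas and 12 against preOP. An approximate SE was taken as the size of the log2 fold change over the root of F. The ratio of pooled reads of Wnt7b has an exact binomial 95% interval, which covers counting error only. Levels per kilobase divide CPM by effective length. Pairs of libraries with identical counts numbered 0. The scripts were tested on simulated data.

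The members, lists and tests were chosen with earlier results of these data known. Values in every library are given for members called in any comparison and, within each role, for the uncalled member with the highest level per kilobase, and for others where 1 library decides a direction. Members below the filter are named where 2 libraries of a group have at least 3 reads, with Wnt7a and Wnt8b added after their values were seen. Listed genes outside the members are named from the called ones with the largest changes, and only some of these are reported. Alternatives were DESeq2 1.42.0 and its size factors, limma-voom (limma 3.58.1), no filter, a replicate block, only the groups compared, effective lengths as offsets, and leaving out libraries. Deviations of same-numbered libraries correlated between -0.213 and 0.22, and libraries were treated as unpaired, although these correlations cannot exclude pairing. Whether nonunion and preOP libraries came from the same rats is not stated.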

Additional observations from a re-analysis of the deposited data

Results flagged for a closer look

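For 4 genes the change against preOP femur differed between hematoma groups by a test of the difference itself, which is the comparison between those hematomas. For Wnt5b the change was smaller than in normal hematomas by a log2 difference of -3.70 in nonunion and -5.05 in delayed, and it had opposite signs in both of these groups and in normal. For Fzd2 the difference from normal was -2.83 in nonunion and -2.42 in delayed, with all 3 groups above preOP. For Fzd8 it was -1.79 in delayed. For Nkd2 it was -2.14 in delayed, with both groups below preOP. Causes of these differences were not tested.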

How the results depend on the processing

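No called log2 fold change turned its sign under any alternative. DESeq2 called 8 members in nonunion, 1 of them higher (Fzd4), and 7 in delayed against normal, where it called 8.37% and 13.1% of all features. Without nonunion 2 and delayed 2 the counts were 4 (nonunion) and 9 (delayed) against normal, and 17 (nonunion), 18 (delayed) and 24 (normal) against preOP. The shares of all features rose too, to 3.4% and 16.3% against normal and to 41.7%, 41.6% and 58.1% against preOP. Leaving out 1 library gave 1 to 1 calls in nonunion and 1 to 5 in delayed against normal, and 4 to 13 in nonunion, 6 to 12 in delayed and 10 to 14 in normal against preOP. The shares of all features were then 0.181% to 1.25% in nonunion and 1.38% to 5.73% in delayed against normal, and 17.9% to 32.4%, 17.6% to 30.9% and 30.4% to 37.1% against preOP. The replicate block, a number shared by libraries not known to pair (correlations of deviations -0.213 to 0.22), gave 3 calls in nonunion and 3 in delayed against normal. It gave 0 in nonunion against delayed, and 7 in nonunion, 9 in delayed and 14 in normal against preOP. The block called 1.19% of all features in nonunion and 3.47% in delayed against normal, and 0% in nonunion against delayed. Against preOP the shares were 26.4% in nonunion, 26.3% in delayed and 41.2% in normal. With the block, adjusted p was 0.0584 for Fzd8 in delayed against normal, 0.0588 for Wnt7b and 0.0603 for Wls in nonunion, 0.0779 for Wnt5a in delayed, and 0.0513 for Wnt9a, 0.0518 for Nkd1, 0.0524 for Nkd2 and 0.0502 for Rnf43 in normal against preOP. The call of Rnf43 in nonunion was lost with only these groups in the fit (0.0653). Values uncalled with all libraries turned sign and were called for Fzd9 in delayed against normal, to -3.52 without nonunion 2 and delayed 2 and between -3.58 and 1.39 on leaving out 1 library. They did so for Rspo3 in delayed against preOP, to -4.12 without nonunion 2 and delayed 2 and between -4.10 and 0.75 on leaving out 1 library. DESeq2 size factors moved the median over all features in delayed against preOP to 0.09, from -0.03 with TMM. Among log2 fold changes of single members under the alternatives, 2899 kept their side of the threshold, 107 lost a call and 76 gained one. In 4 the sign turned with a call gained. The causes of changes were not tested. Depth limits Wnt5b in delayed, Wnt7b, Rnf43 and the 8 genes below the filter.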
